A study of Mus musculus with 4 samples.

Results

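The anaphase-promoting complex (APC/C), its coactivators, its inhibitors and the securin-separase module were followed in mouse germinal vesicle (GV) oocytes through 10 genes named by symbol, namely Cdc20, Fzr1, Fbxo5, Fbxo43, Pttg1, Espl1, Cdc16, Cdc23, Cdc27 and Anapc1. All 10 are among the 16861 genes listed in each library. The libraries came from fully grown oocytes of 3-week-old female C57BL/6J mice, freed of cumulus cells, stained with a Hoechst dye in medium with milrinone, which holds meiotic arrest, and sorted under ultraviolet light. In NSN (non-surrounded nucleolus) oocytes the chromatin is diffuse with dense spots, and in SN (surrounded nucleolus) oocytes it is condensed in a ring around the nucleolus. No allele or treatment beyond this handling is given for either group, and oocytes that could not be assigned were set aside. There were 2 NSN and 2 SN libraries, each a pool of 15 oocytes amplified by Smart-seq2, in which cDNA is primed from the poly(A) tail. Nothing in the labels ties the pools to separate groups of mice, so the p-values measure the spread between these libraries, which may be technical.

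The APC/C is a large ubiquitin ligase that marks cell cycle proteins for destruction by the proteasome. It works with a coactivator, Cdc20 or Cdh1 (encoded by Fzr1), which brings in substrates such as cyclin B and securin. In GV oocytes APC/C with Cdh1 keeps cyclin B low and helps to hold prophase arrest. At the end of the first division APC/C with Cdc20 destroys securin, which frees separase to cleave cohesin. In the mature egg Emi2 (encoded by Fbxo43) inhibits the APC/C and holds the arrest until fertilisation.

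Many genes of late mitosis carry a cell cycle gene homology region (CHR) and CCAAT boxes near the start site, which recruit cell cycle transcription complexes in somatic cells. RefSeq windows from 250 bases before to 50 bases after the start site (build GRCm38.p6, which is not the build of the expression data) were matched for 8 of the 10 genes. The CHR was searched in its usual form, TTTGAA, and in a further form with the letters TTCGAA. The CCAAT box was searched by its own letters. All were looked for on both strands, and each was counted on its own even where the letters overlapped. Of the 8 genes, 3 held a CHR (Cdc20, Espl1 and Fbxo5), and all 3 also held CCAAT. In Cdc27 and Fzr1 the box was found without a CHR. Of all 32851 windows, 19.2% held a CHR, 37.4% held CCAAT and 7.52% held both. The stretches of 30 bases below show the CHR of Cdc20, of Espl1 and of Ube2c (the enzyme that starts ubiquitin chains on APC/C substrates), and a CCAAT box of Cdc27, the only one of the 10 genes that passed the test below. They are written 5′ to 3′ along the gene, with the motif in capitals. For Ube2c and Cdc27 the capitals are the reverse complement of the motif, which lies on the other strand.
Cdc20, minus strand, chr4:118437344-118437373: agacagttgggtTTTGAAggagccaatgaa
Espl1, plus strand, chr15:102296254-102296283: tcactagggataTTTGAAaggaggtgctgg
Ube2c, plus strand, chr2:164769888-164769917: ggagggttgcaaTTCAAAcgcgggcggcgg
Cdc27, minus strand, chr11:104550669-104550698: gagacacttcctATTGGatccaacccaaca
A match describes letters in the window, and no match says only that these letters are not in it.

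The labelled cell type was checked first. All 10 oocyte markers are listed, with a summed level of 18687 to 19774 FPKM in NSN and 12182 to 13104 FPKM in SN libraries. Of 14 granulosa and cumulus cell markers, 10 are listed, and their summed level was 9.68 and 13.6 FPKM in NSN and 14.2 and 13.4 FPKM in SN libraries. Most of it was Cyp19a1 (mean 7.62 FPKM), and the other 9 summed to 3.87 to 5.77 FPKM. Foxl2, Amh, Amhr2 and Nr5a1 are not among the listed genes and were not analysed here. The part of these cells in the results was not tested. Library totals recovered from the FPKM ranged from 17069772 to 17998361 read pairs.

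FPKM are read pairs relative to gene length and library total, so levels can be compared between genes, within the limits of the gene length the authors used. Securin, Pttg1, stood far above the other 9 genes, with a mean of 620 FPKM over the 4 libraries and at the 99.3rd percentile of the listed genes. Fbxo5 followed at 180 FPKM, Cdc20 at 91.2, Fbxo43 at 52.1, Cdc27 at 27.1, Fzr1 at 15.7, Cdc16 at 14.1, Anapc1 at 4.74, Espl1 at 4.34 and Cdc23 at 1.42 FPKM. In this order, neighbours were separated in every library except Fzr1 and Cdc16, and Anapc1 and Espl1, where the first gene of each pair was higher in 3 of 4 libraries and the ranges overlapped. The transcripts of the regulators thus covered a wide range. The 4 subunits of the complex among these genes, called core subunits here, lay between 1.42 and 27.1 FPKM. Over all 14 subunits, with the 10 others described below, the mean levels ran from 1.42 to 139 FPKM.

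**Figure D1:**
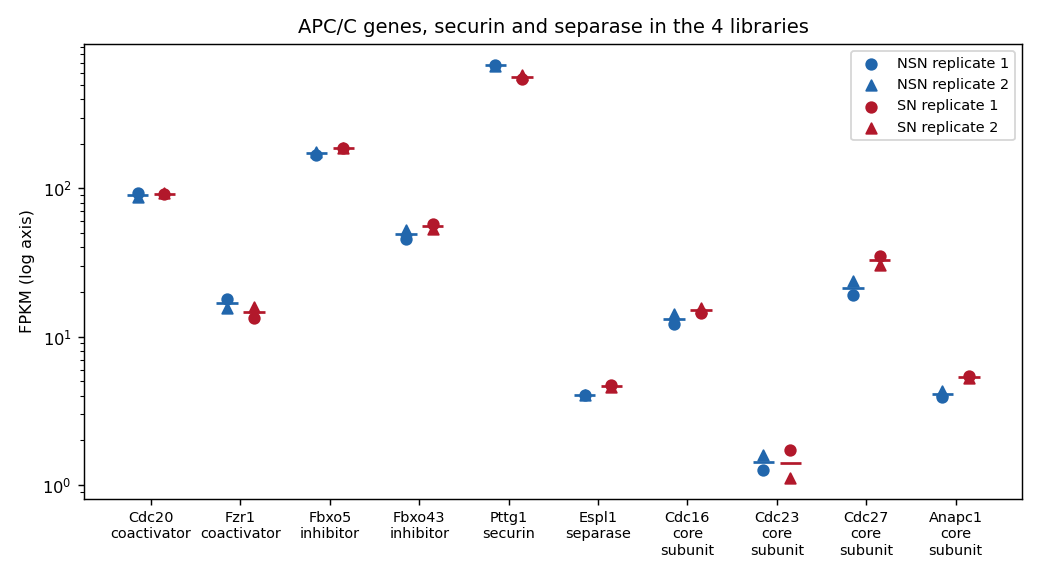
FPKM (log axis) of the 10 genes in each library, grouped by role, with circles and triangles for replicates 1 and 2, NSN in blue, SN in red, and a bar at the mean of each group. Pttg1 is the highest and Cdc23 the lowest, and Cdc27 shows the widest gap between the configurations.

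Of the 10 genes, only Cdc27 passed the test between the configurations, with a higher FPKM in SN libraries, on the FPKM as deposited. SN was compared with NSN with limma on log2(FPKM + 0.5). The test covered 11672 genes whose FPKM averaged 0.5 or more, and a call needed an adjusted p under 0.05 over all these genes and a fold change of at least 1.2. Of the 10 genes, 1 was called, higher in SN, and 0 were lower, whereas 7.93% of all genes tested were called, 5.95% higher and 1.98% lower. The direction of this excess over all genes depends on the scaling, with 695 genes higher and 231 lower on the FPKM as deposited, but 67 and 167 after median scaling, 75 and 158 with quantile normalisation, and 741 and 962 with voom after median scaling. Voom on the recovered read pairs, scaled by library total, called 2 (Cdc27 and Anapc1), both higher, whereas it called 19.7% of all genes, 15.1% higher and 4.58% lower. At an unadjusted p under 0.05 there were 3 (Cdc27, Anapc1 and Pttg1), beside 31.7% of all genes tested. Both SN libraries lay above both NSN libraries for 6 genes and below them for 1, and 3 overlapped. Over all genes tested, 44.8% lay above and 17.8% below, 62.6% in all, beside 7 of these 10. The median log2 fold change of the 10 genes was 0.15, beside 0.14 for all genes tested. In RNA from pooled cells, a lower value cannot tell fewer cells with a transcript from less of it per cell.

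Among the coactivators, Cdc20, the one that acts at anaphase, had nearly the same level in both configurations. It was at 93.5 FPKM in the first and 87.1 FPKM in the second NSN library, and at 91.8 and 92.5 FPKM in the SN libraries, in the order of their replicate numbers, which is kept for all genes. The SN values lay inside the NSN range. The log2 fold change was 0.03 (95% interval -0.16 to 0.22, limma adjusted p = 0.82), so a change of the size of the fold threshold (0.26 on the log2 scale) lay outside the interval, on the FPKM as deposited. Cdc20 (ENSMUSG00000006398.17) lies on chromosome 4 of GRCm39 from 118290098 to 118294610, minus strand, and at least 2798 read pairs stood behind each value.

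Fzr1 encodes Cdh1, the coactivator of prophase arrest. It was at 17.9 and 15.7 FPKM in NSN and at 13.3 and 15.9 FPKM in SN libraries. SN replicate 2 lay between the NSN libraries, and the groups overlapped. The log2 fold change was -0.20 (95% interval -0.50 to 0.10, limma adjusted p = 0.32), and this interval still holds falls larger than 1.2-fold. The value was -0.11 without NSN replicate 1 and -0.08 without SN replicate 1, and -0.32 without SN replicate 2. Fzr1 (ENSMUSG00000020235.18) lies on chromosome 10 from 81202056 to 81214352, minus strand.

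The 2 inhibitors are paralogous F-box proteins, Emi1 (Fbxo5) and Emi2 (Fbxo43). Fbxo5, which restrains APC/C with Cdh1 before division, was at 169 and 176 FPKM in NSN and at 186 and 188 FPKM in SN libraries. Fbxo43, whose product inhibits the APC/C in the egg arrest, was at 45.5 and 52.2 FPKM in NSN and at 57.7 and 53.1 FPKM in SN libraries. In both genes the SN libraries were the higher pair, for Fbxo43 by a gap smaller than the difference between replicates. The log2 fold changes were 0.12 for Fbxo5 (95% interval -0.06 to 0.29, limma adjusted p = 0.31) and 0.18 for Fbxo43 (95% interval -0.06 to 0.42, limma adjusted p = 0.26), and neither passed the test. That of Fbxo43 was 0.08 without NSN replicate 1 and 0.28 without NSN replicate 2. Fbxo5 (ENSMUSG00000019773.9) lies on chromosome 10 from 5748862 to 5755913 and Fbxo43 (ENSMUSG00000048230.8) on chromosome 15 from 36150206 to 36165129, both on the minus strand. Of the exons of Fbxo43, 10.6% lie over genes of the opposite strand, and the counting did not use strand.

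Securin, Pttg1, holds separase inactive until anaphase. It was at 682 and 669 FPKM in NSN and at 549 and 579 FPKM in SN libraries, so it was lower in both SN libraries by more than the replicates differed. The means were 676 ± 9.54 and 564 ± 20.9 FPKM (SD, n = 2), an SN level of 0.835 times the NSN level. The log2 fold change of -0.26 (95% interval -0.43 to -0.10, standard error 0.07) missed both thresholds, with a limma adjusted p of 0.064 and a fold just under 1.2. The adjusted p was 0.022 with voom on the read pairs, where the fold also fell short. Voom after median scaling called Pttg1 (adjusted p = 0.0077). The limma adjusted p was 0.034 among genes averaging 5 FPKM or more, but 0.11 with all listed genes. It was 0.18 without the variance trend and 0.10 with the replicate block. With quantile normalisation it was 0.13, at a log2 fold change of -0.17. With libraries left out, the log2 fold change ranged from -0.30 to -0.22. Pttg1 was the most deeply measured of the 10 genes, with at least 16556 read pairs in each library. Pttg1 (ENSMUSG00000020415.18) lies on chromosome 11 from 43311071 to 43321000, minus strand, and 8.90% of its exons lie over Slu7.

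Espl1 encodes separase, the protease that cleaves cohesin. It was at 4.01 and 4.07 FPKM in NSN and at 4.70 and 4.59 FPKM in SN libraries. The SN libraries were the higher pair, and the replicates of each group lay close together. The log2 fold change of 0.18 (95% interval -0.12 to 0.47, limma adjusted p = 0.35) did not pass the test. Espl1 (ENSMUSG00000058290.6) lies on chromosome 15 from 102204701 to 102233535, plus strand.

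The core subunits held the only called gene. Cdc27 (the subunit Apc3, whose repeats dock the tail of the coactivators) was at 19.0 and 23.8 FPKM in NSN and at 35.0 and 30.5 FPKM in SN libraries. Both SN libraries were above both NSN libraries, and the replicates of each group differed as well. The means were 21.4 ± 3.39 and 32.8 ± 3.15 FPKM (SD, n = 2), an SN level of 1.53 times the NSN level. The log2 fold change was 0.61 (standard error 0.13, 95% interval 0.29 to 0.93, limma adjusted p = 0.046). The adjusted p was 0.13 without NSN replicate 1, 0.13 without SN replicate 1 and 0.099 without SN replicate 2, and 0.014 without NSN replicate 2, with log2 fold changes from 0.45 to 0.77. It was 0.066 with the replicate number as a block and 0.077 after median scaling. Cdc27 (ENSMUSG00000020687.15) lies on chromosome 11 from 104393332 to 104441446, minus strand, with at least 1932 read pairs in each library.

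The other core subunits did not pass. Anapc1, the largest scaffold subunit, was at 3.94 and 4.31 FPKM in NSN and at 5.41 and 5.29 FPKM in SN libraries, and its log2 fold change was 0.34 (95% interval 0.04 to 0.64, limma adjusted p = 0.12). Cdc16 (Apc6), a repeat subunit of the same arm as Cdc27, was at 12.2 and 14.3 FPKM in NSN and at 14.4 and 15.6 FPKM in SN libraries, and its log2 fold change was 0.18 (limma adjusted p = 0.33), with 0.07 without NSN replicate 1 and 0.29 without NSN replicate 2. For Anapc1 the gap between the groups was larger than that between replicates, whereas for Cdc16 the nearest NSN and SN libraries were almost level. Cdc23 (Apc8), a further repeat subunit, was at 1.26 and 1.59 FPKM in NSN and at 1.71 and 1.12 FPKM in SN libraries, so the SN libraries bracketed the NSN libraries. Its log2 fold change of -0.02 had a 95% interval of -0.52 to 0.48 (limma adjusted p = 0.96). It rests on 90 to 131 recovered read pairs, which are lower limits, and a difference of the size measured for Anapc1 lay inside this interval. Of its exons, 19.1% lie over Kif20a on the opposite strand. Anapc1 (ENSMUSG00000014355.12) lies on chromosome 2 from 128452002 to 128529325, Cdc16 (ENSMUSG00000038416.17) on chromosome 8 from 13807368 to 13833218 and Cdc23 (ENSMUSG00000024370.19) on chromosome 18 from 34761403 to 34784812.

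**Figure D2:**
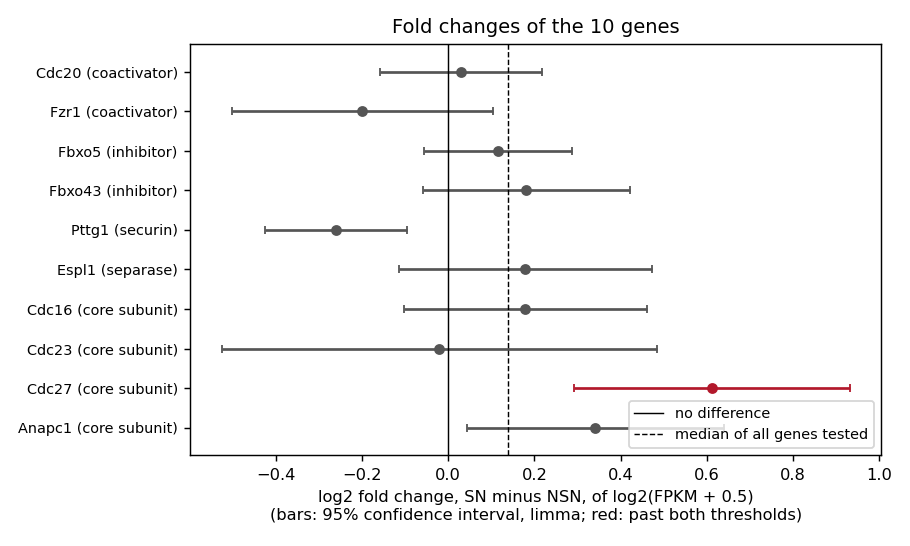
Log2 fold change from NSN to SN of the 10 genes, with 95% confidence intervals from limma, the dashed line marking the median of all genes tested (0.14). Cdc27 at 0.61 (red) is the gene past both thresholds, and the intervals of Pttg1 and Anapc1 also leave out 0.

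The deposited FPKM carry a general shift, since the median gene had a log2 fold change of 0.14. After each library was divided by its median ratio to the geometric mean of the 4 libraries, this shift was 0.005. On that scale 5 of the 10 genes had a positive log2 fold change, beside 5906 of all 11672 genes tested. On the FPKM as deposited these counts were 7 and 7782. The median of the 10 after median scaling was -0.006. Cdc27 became 0.46 (limma adjusted p = 0.077) and Pttg1 -0.42 (limma adjusted p = 0.059). Fzr1 became -0.35 (limma adjusted p = 0.16). The signs of Cdc20 and Fbxo5 turned negative, at -0.12 and -0.04, and that of Cdc16 turned negative with quantile normalisation only, so their directions depend on the scaling. Fzr1, Pttg1 and Cdc23 were negative on both scales, and Fbxo43, Espl1, Cdc27 and Anapc1 were positive on both.

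**Figure D3:**
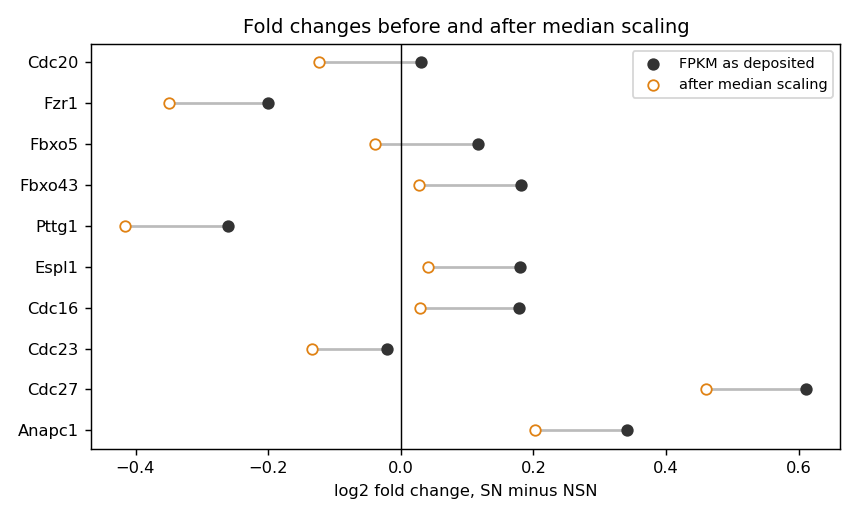
Log2 fold change from NSN to SN of the 10 genes on the FPKM as deposited (filled) and after median scaling of the libraries (open), joined by a line for each gene. All points move to the left, and Cdc20 and Fbxo5 cross 0.

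Ratios of 2 genes within a library do not change when the library is divided by a single factor. They can change with quantile normalisation, where the log2 fold changes were -0.17 for Pttg1 and 0.03 for Espl1. The ratios below are from the FPKM as deposited. The securin to separase ratio was 170 and 164 in NSN and 117 and 126 in SN libraries, so both SN libraries had fewer Pttg1 fragments per Espl1 fragment and length. The log2 ratio differed by -0.46 (means 7.39 ± 0.03 and 6.92 ± 0.08, SD, n = 2). The Cdc20 to Fzr1 ratio was 5.21 and 5.55 in NSN and 6.90 and 5.82 in SN libraries, a difference of 0.24 on the log2 scale, and the groups did not overlap, although the SN replicates were further apart than SN replicate 2 was from the NSN libraries. The Fbxo43 to Fbxo5 ratio was 0.269 and 0.296 in NSN and 0.310 and 0.283 in SN libraries, and these overlapped. With 2 libraries against 2, the exact permutation test (two-sided) cannot give a p below 0.33, the value for the first and second ratios, and it gave 0.67 for the third. This test therefore cannot decide on any of these ratios, and the values stand as a description.

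**Figure D4:**
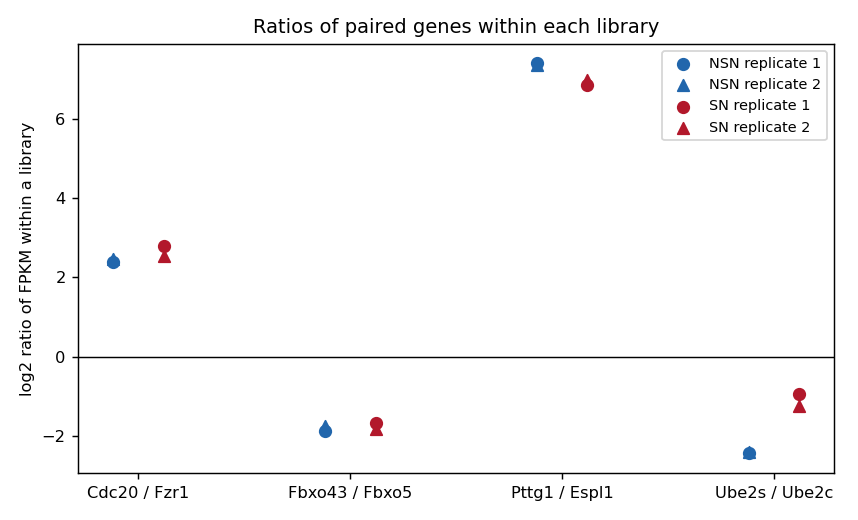
Log2 ratio of the FPKM of 2 genes within each library, for Cdc20 over Fzr1, Fbxo43 over Fbxo5, Pttg1 over Espl1 and Ube2s over Ube2c (the last chosen after its values were seen), with NSN in blue and SN in red. The Ube2s to Ube2c ratio shows the widest gap between the configurations, and the Fbxo43 to Fbxo5 ratio overlaps.

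Around these genes, 33 further genes of the pathway were taken as a list, of which 32 are listed in the libraries and were tested (Rec8 was not analysed here). Of the 32, 4 were called, all higher in SN (Ube2s, Sgo2a, Rad21 and Smc3), and 28 did not pass, whereas 7.93% of all genes were called and 5.95% higher. The single direction held for these settings but not for every alternative. Voom called 6 higher and 4 lower at total scaling (15.1% and 4.58% of all genes). At median scaling it called 5 and 8 (741 and 962 of all 11660 genes). An adjusted p under 0.1 gave 6 and 3 (1790 and 580 of 11672). Raising the filter on the average FPKM to 5 left 26 of the list and also gave 6 and 3 (1169 and 327 of 5519). Where each library had to reach 0.5 FPKM, 5 were higher and 1 was lower (954 and 293 of 10600). The median log2 fold change of the list was 0.05. Both SN libraries lay above both NSN libraries for 13 genes (40.6%, beside 44.8% of all genes) and below them for 9 (28.1%, beside 17.8%).

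Of the 10 other subunits of the complex, 0 were called by limma (7.93% of all genes) and 4 had an unadjusted p under 0.05 (31.7% of all genes). Voom with total scaling called 2, Anapc5 and Cdc26, a share like the 19.7% of all genes. Anapc5 (Apc5), a scaffold subunit, was the lower one, at 31.6 and 27.7 FPKM in NSN and 23.0 and 20.3 FPKM in SN libraries, and its log2 fold change was -0.44 (limma adjusted p = 0.058). Cdc26, a small subunit that stabilises Cdc16, was at 21.0 and 24.0 FPKM in NSN and 30.5 and 29.4 FPKM in SN libraries, and its log2 fold change was 0.41 (limma adjusted p = 0.058). Over all 14 subunits, core included, 7 had SN above NSN in every library (50%, beside 44.8% of all genes). For 1 subunit SN lay below (7.14%, beside 17.8%). The median log2 fold change of the 14 was 0.15. Anapc10, which helps to receive substrates, and Anapc13 and Anapc4 were the other 3 without overlap, at log2 fold changes of 0.29, 0.67 and 0.12 (limma adjusted p = 0.12, 0.11 and 0.32). Anapc13 rests on as few as 21 recovered read pairs in a library, which is a lower limit, and its value was 0.36 without SN replicate 1.

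The ubiquitin-conjugating enzymes that work with the complex had log2 fold changes of both signs. Ube2s, which extends the chains, was at 17.3 and 17.9 FPKM in NSN and 31.1 and 33.3 FPKM in SN libraries, and its log2 fold change was 0.85 (limma adjusted p = 0.036, standard error 0.09). Ube2c, which starts them, was at 94.6 and 95.8 FPKM in NSN and 59.9 and 78.8 FPKM in SN libraries, and its log2 fold change was -0.47, which did not pass (limma adjusted p = 0.072) and was -0.27 without SN replicate 1. Ube2c stayed the more abundant transcript in each library. The Ube2s to Ube2c ratio was 0.183 and 0.186 in NSN and 0.520 and 0.423 in SN libraries, a log2 difference of 1.34, chosen after its values were seen and given without a test. Ube2s shares 25.4% of its exons with genes of the opposite strand, among them Rpl28 over 20.1%, and Ube2c shares 19.0% with Tnnc2, so their read pairs are uncertain. Ube2d1, a general chain starter, was at 3.33 and 3.32 FPKM in NSN and 4.38 and 4.31 FPKM in SN libraries (limma adjusted p = 0.12).

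Among 8 substrates 0 were called by limma, and 2 had an unadjusted p under 0.05 (Ccnb1 and Ccnb3), while voom with total scaling called 1, Ccnb3. Over all genes these shares were 7.93%, 31.7% and 19.7%. Cyclin B1, Ccnb1, the partner of Cdk1, was at 998 and 944 FPKM in NSN and 800 and 823 FPKM in SN libraries. Its log2 fold change of -0.26 (limma adjusted p = 0.065) was like that of Pttg1, another abundant transcript. Cyclin B3, Ccnb3, needed for anaphase of the first division, was at 5.93 and 9.99 FPKM in NSN and 13.5 and 14.4 FPKM in SN libraries, and its log2 fold change was 0.82 (limma adjusted p = 0.067). It was 0.46 without NSN replicate 1, and 1.17 and called without NSN replicate 2 (limma adjusted p = 0.0081). Ccna2, Plk1 and Nek2 lay lower in both SN libraries, at log2 fold changes of -0.20, -0.13 and -0.16 (limma adjusted p = 0.20, 0.32 and 0.27). Aurka, a mitotic kinase, lay slightly higher at 0.06, with a sign that turned after median scaling. Of the 8 substrates, 4 had both SN libraries below both NSN libraries and 2 above, beside 17.8% and 44.8% of all genes. Of the exons of Aurka 38.6%, of Ccna2 17.5% and of Nek2 11.6% lie over genes of the opposite strand.

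Separase cleaves cohesin, and the 3 tested genes of this group were all called higher in SN, as were 5.95% of all genes. Rec8, the remaining gene of the group, is not among the listed genes, so nothing is shown for it. Sgo2a, the shugoshin that shields centromeric cohesin from separase in meiosis, was at 11.9 and 11.9 FPKM in NSN and 17.9 and 19.0 FPKM in SN libraries, and its log2 fold change was 0.61 (adjusted p = 0.036 by limma, standard error 0.10). Rad21, the mitotic cohesin cleaved by separase, was at 8.80 and 10.3 FPKM in NSN and 13.9 and 13.7 FPKM in SN libraries, and its log2 fold change was 0.52 (adjusted p = 0.047 by limma, standard error 0.12). Smc3, a ring subunit, was at 24.9 and 27.6 FPKM in NSN and 36.8 and 34.6 FPKM in SN libraries, and its log2 fold change was 0.43 (adjusted p = 0.047 by limma, standard error 0.10). After median scaling the adjusted p of these 3 genes ranged from 0.059 to 0.10, while that of Ube2s was 0.046. Leaving out NSN replicate 1 or SN replicate 2 raised the adjusted p of Ube2s and of these 3 genes above 0.05, and leaving out SN replicate 1 left only Ube2s under it. Of the exons of Sgo2a, 25.6% lie over Kctd18.

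Transcripts for the ligase that removes Emi1 before division, built on Btrc or Fbxw11 with Skp1, were lower in SN without passing the test. All 3 genes were lower in SN without overlap between the groups, as were 17.8% of all genes. Skp1, one of the most abundant transcripts of the oocyte, was at 4740 and 4726 FPKM in NSN and 3982 and 3829 FPKM in SN libraries, and its log2 fold change was -0.28 (limma adjusted p = 0.053). Of its exons, 14.9% lie over a gene of the opposite strand. The sign turned to 0.02 with quantile normalisation. Btrc and Fbxw11 had log2 fold changes of -0.17 and -0.47 (limma adjusted p = 0.26 and 0.11). Voom with total scaling called Fbxw11 and Skp1 lower, whereas it called 4.58% of all genes lower. Fbxw11 rests on as few as 66 recovered read pairs in a library, which is a lower limit.

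Checkpoint proteins bind Cdc20 and hold the APC/C until chromosomes are attached. Of 5 genes for these proteins and for others that take their complex apart, 0 were called, with 0 at an unadjusted p under 0.05 and 0 called by voom with total scaling, beside 7.93%, 31.7% and 19.7% of all genes. Their log2 fold changes ran from -0.38 to 0.19. Mad2l1, which captures Cdc20, was at 19.3 and 21.6 FPKM in NSN and 23.3 and 23.2 FPKM in SN libraries (limma adjusted p = 0.24). Mad2l1bp, which releases it, had a log2 fold change of 0.08, with a sign that turned after median scaling.

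**Figure D5:**
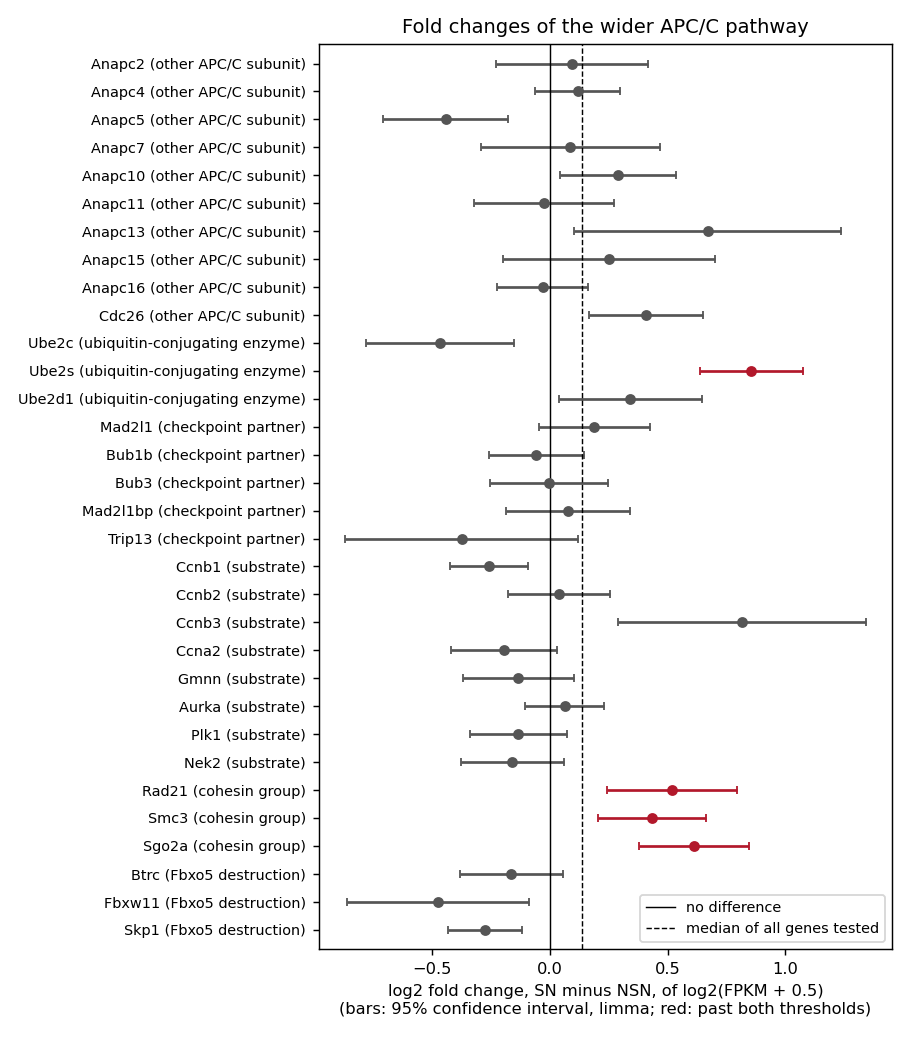
Log2 fold change from NSN to SN of 32 further APC/C pathway genes by group, with 95% confidence intervals from limma and a dashed line at the median of all genes tested (0.14). The 4 genes past both thresholds (red) are Ube2s at 0.85, Sgo2a at 0.61, Rad21 at 0.52 and Smc3 at 0.43.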

How the data were processed

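Poly(A) RNA was measured by Smart-seq2 in 4 libraries, 2 per configuration. The authors trimmed the reads with Trim Galore 0.6.10, mapped them to GRCm39 with HISAT2 and GENCODE annotation, counted primary read pairs on exons with featureCounts without strand, and deposited FPKM made with their own script. Groups and replicate numbers came from the sample titles. Here log2(FPKM + 0.5) was compared with limma 3.58.1 in R 4.3.3 (lmFit, eBayes with a variance trend) over 11672 genes, leaving out those whose FPKM averaged under 0.5. Two-sided p were adjusted by Benjamini-Hochberg, and a call needed 0.05 and a fold of 1.2. On this scale, differences of genes at low FPKM come out smaller than they are. The procedure was tested on simulated data with the same set spread for all genes and no general shift between the groups. That test therefore does not cover the shift and the dependence on settings seen here.

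Read pairs were recovered from the FPKM for 16838 genes (99.86%), with totals from 5 mitochondrial tRNA genes of known length and the smallest gene length giving whole numbers within 1e-05 in all libraries. They are lower limits, also where voom used them, and PCR copies are not separate molecules, so their precision is that of counting alone. For Fbxo5 the smallest length was 970 bases, of 3078 annotated, and its read pairs are not given. Gene positions and shared exons came from GENCODE M39 on GRCm39, a later release of the annotation. Median scaling divided each library by the median ratio of its genes to their geometric mean over the 4 libraries. Python 3.11.15 with numpy 2.4.6, scipy 1.17.1, matplotlib 3.10.9 and pandas 2.3.3 gave the other values and the plots.

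The 10 genes and the wider list were chosen with earlier results of these data known. All 10 are named, and of the wider list those called or without overlap between the groups. Alternatives were other pseudocounts (0.1 and 1), filters, scalings, the variance trend, the threshold, voom on the read pairs, the replicate number as a block, and each library left out.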

Additional observations from a re-analysis of the deposited data

How the results depend on the processing

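Of the 10 genes, 1 was called with the settings used, with pseudocounts of 0.1 and 1, at a mean FPKM of at least 5 (where 7 entered the test), with 0.5 FPKM or more required in each library and at an adjusted p under 0.1. It was 0 with all listed genes, median scaling, quantile normalisation, no variance trend and the replicate block. There 2 to 3 of the 10 had an unadjusted p under 0.05 (4092 of 16861 with all listed genes, 3158 to 3449 of 11672 otherwise). Voom called 2 at total scaling (Cdc27 and Anapc1) and 2 at median scaling (Cdc27 and Pttg1), beside 2297 and 1703 of 11660 genes. Leaving out a library gave 0 to 1. There the lone library of a group is assumed to vary like the other group, and fewer libraries remain.

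Of the 32 wider genes, 4 were called with the settings used (926 of all 11672 genes). A mean FPKM of at least 5 gave 9 (of 26 tested, beside 1496 of 5519), as did an adjusted p under 0.1 (2370 of 11672). Median scaling and quantile normalisation each gave 1 (234 and 233 of 11672). All listed genes and no variance trend gave 0. At an unadjusted p under 0.05 these had 14 and 12, beside 4092 of 16861 and 3449 of 11672 genes. Voom gave 10 at total scaling and 13 at median scaling (2297 and 1703 of 11660). The replicate block left 2 (Ube2s and Sgo2a), beside 422 of 11672. The libraries share only a number, and differences between replicates correlated at -0.07 across genes between NSN and SN. Leaving out a library gave 0 to 7. Over all genes, calls ranged from 0 (all listed genes, no variance trend, without NSN replicate 1) to 2370 at an adjusted p under 0.1. The cause of these shifts was not tested.

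Signs turned for Cdc20 (-0.12 with median scaling and voom with median scaling, -0.0282 with quantile normalisation), Fbxo5 (-0.0387 and -0.0388 with these median scalings), Cdc16 (-0.0187, quantile), Anapc4 (-0.036, both median scalings), Mad2l1bp (-0.0694, -0.10 and -0.0744 with median scaling, quantile and voom with median scaling), Aurka (-0.0913 and -0.0912, median scalings) and Skp1 (0.0234, quantile). With libraries left out, the log2 fold change ranged from -0.0208 to 0.0808 for Cdc20 and from -0.25 to 0.21 for Cdc23. The Fbxo43 to Fbxo5 log2 ratio, 0.07, ranged from -0.0016 to 0.13, and those of Cdc20 to Fzr1 and Pttg1 to Espl1 from 0.11 to 0.36 and from -0.52 to -0.41. Of the values of the 10 genes under alternatives that kept all libraries, 6 turned in sign, 5 lost the call, 2 gained it and 104 did none of these.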
